A study of Homo sapiens with 24 samples.

Results

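Glycolytic enzymes and hypoxia response genes were followed in C4-2B, a human prostate cancer line that responds to androgen, after knockdown of the coactivators p300 or CBP and after androgen treatment. The set was a list of 37 genes, made up of enzymes from hexokinase to lactate dehydrogenase and of targets and regulators of the hypoxia-inducible factors (HIF), without the SLC2A glucose transporters. A probe counted as detected where its detection p was below 0.05 on 4 or more of the 24 arrays, which gave 52 probes of 32 genes among 23038 probes kept in all. Probes of PDK1, EGLN3 and LOX were present but did not reach that level of detection, and SLC16A3 and CA9 were not analysed here. The rule used gene symbols and detection, and the list itself was drawn up with earlier results of these data known. It also asked for comparison within replicate numbers, because the members' level was already known to vary between them.

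Each of 24 Illumina bead arrays measured total RNA of 1 sample. Cells were transfected with 1 of 3 siRNAs: siNS, of non-specific sequence, sip300, which targets the p300 gene EP300, or siCBP, which targets the CBP gene CREBBP. All had grown for 3 days without phenol red in 5% serum stripped of steroids with charcoal, and were sampled at 0 h or after 16 h with 10 nM dihydrotestosterone (DHT), a natural androgen. This gave 6 groups of 4 arrays, numbered as replicates 1 to 4 in each group, and no label says whether these were separate cultures. The p-values thus cover only the spread among these arrays, which may be technical. No vehicle and no common harvest time are named in the labels, so a difference between 0 h and 16 h may hold other effects of those 16 h. Oxygen and glucose supply are not described in the labels, and no sample is labelled as hypoxic.

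Glycolysis turns glucose into pyruvate in a chain of cytosolic enzymes, and lactate dehydrogenase turns that pyruvate into lactate, while pyruvate dehydrogenase kinases limit its entry into mitochondria. HIF-1, a dimer of HIF1A and ARNT, and HIF-2, with EPAS1 in place of HIF1A, raise most genes of this chain when oxygen is low, together with genes of blood vessel growth, mitophagy and collagen modification. Prolyl hydroxylases such as EGLN1 use oxygen to mark HIF for breakdown. p300 and its close relative CBP, both histone acetyltransferases, bind the C-terminal activation domain of HIF and serve as its coactivators, and they also serve the androgen receptor and many other factors. HIF binds DNA at a short core, ACGTG or GCGTG.

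The promoters of several members are shown because they carry that core in the stretch just before the annotated start. Sequences are from RefSeq (GRCh38.p14), run 5′ to 3′ on the gene's strand, and capitals mark ACGTG or GCGTG or their reverse complements, CACGT and CACGC. Where CACGTG appears, ACGTG is read on both strands.
PGK1, chrX:78104017-78104089, plus strand: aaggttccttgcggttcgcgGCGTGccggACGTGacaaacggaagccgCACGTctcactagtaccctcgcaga
ENO2, chr12:6914442-6914486, plus strand: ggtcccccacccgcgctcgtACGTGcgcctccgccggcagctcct
LDHA, first start, chr11:18394358-18394514, plus strand: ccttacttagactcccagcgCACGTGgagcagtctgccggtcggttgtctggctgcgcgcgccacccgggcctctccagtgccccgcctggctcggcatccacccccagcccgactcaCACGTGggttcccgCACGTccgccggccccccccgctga
LDHA, other start, chr11:18396208-18396252, plus strand: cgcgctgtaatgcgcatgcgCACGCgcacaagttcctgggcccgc
ANKRD37, chr4:185396659-185396722, plus strand: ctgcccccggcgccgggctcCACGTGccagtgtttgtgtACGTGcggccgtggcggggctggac
BNIP3, chr10:131982003-131982086, minus strand: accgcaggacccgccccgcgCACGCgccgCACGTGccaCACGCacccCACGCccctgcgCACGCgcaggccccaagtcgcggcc
BHLHE40, chr3:4979187-4979312, plus strand: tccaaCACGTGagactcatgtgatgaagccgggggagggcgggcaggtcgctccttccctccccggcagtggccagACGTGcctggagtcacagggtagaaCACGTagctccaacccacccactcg

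A promoter window of 250 bases upstream of the start was found for 35 of the 37 genes, and VEGFA and BNIP3L had no entry. Both strands were searched. ACGTG was present in a window of 23 of these 35 genes (65.7%), against 21.7% of all 27305 genes with a window. GCGTG was present in 21 of them (60%, against 36.2%), and either core in 32 (91.4%, against 47.4%). The 35 genes had 67 windows, since several have more than 1 start, and counted by window either core was in 65.7% of theirs and in 43.2% of all 35116 windows. The full CACGTG, which overlaps ACGTG, was in windows of 9 genes (25.7%, against 7.73%). AGAACA, one arm of the androgen response element, was in windows of 5 genes (14.3%, against 14.8%). The list holds textbook HIF targets, so the high share of HIF cores comes with its choice, and a match is a run of letters and not a bound site.

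The siRNAs worked on their targets: EP300 (probe ILMN_1744665) was left at 48.8% of its siNS level with sip300 (adjusted p = 7.87e-06, limma) and CREBBP (probe ILMN_1809583) at 30.5% with siCBP (adjusted p = 9.43e-07), both over both times. With sip300 this CREBBP probe was higher by 0.49 on the log2 scale (adjusted p = 0.00757), and a second, dim CREBBP probe by 0.26 (adjusted p = 0.148). Luminal prostate markers were present, with 7 of 9 genes that have a probe detected on all 24 arrays and a summed signal of 22401 to 37447. KRT5, KRT14, KRT15 and ITGA6 of basal epithelium, PTPRC, CSF1R, CD3E and LAPTM5 of leukocytes, CHGA, CHGB, SYP and SCG3 of neuroendocrine cells, and KDR and CDH5 of endothelium never reached detection on 4 arrays. These were 4 of 5 basal, 4 of 6 leukocyte, 4 of 5 neuroendocrine and 2 of 4 endothelial genes with a probe, and the others reached it. Of the leukocyte genes 1 was detected on all 24 arrays, and the summed signal of that list was 748 to 1031. The summed signal of the list of 8 stromal genes was 644 to 801 and 625 to 747 in sip300 cells at 0 h and 16 h, against 509 to 630 and 527 to 560 in siNS cells and 505 to 597 in siCBP cells. With sip300 over both times 2 of its 3 detected probes rose, as did the 1 detected basal probe, while 1 of 4 leukocyte probes fell and 3 of 15 luminal probes rose and 5 fell. Of the stromal genes DCN, LUM, COL1A2, COL3A1 and THY1 stayed under 4 arrays. The part of these markers in the results on sip300 was not tested.

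**Figure D1:**
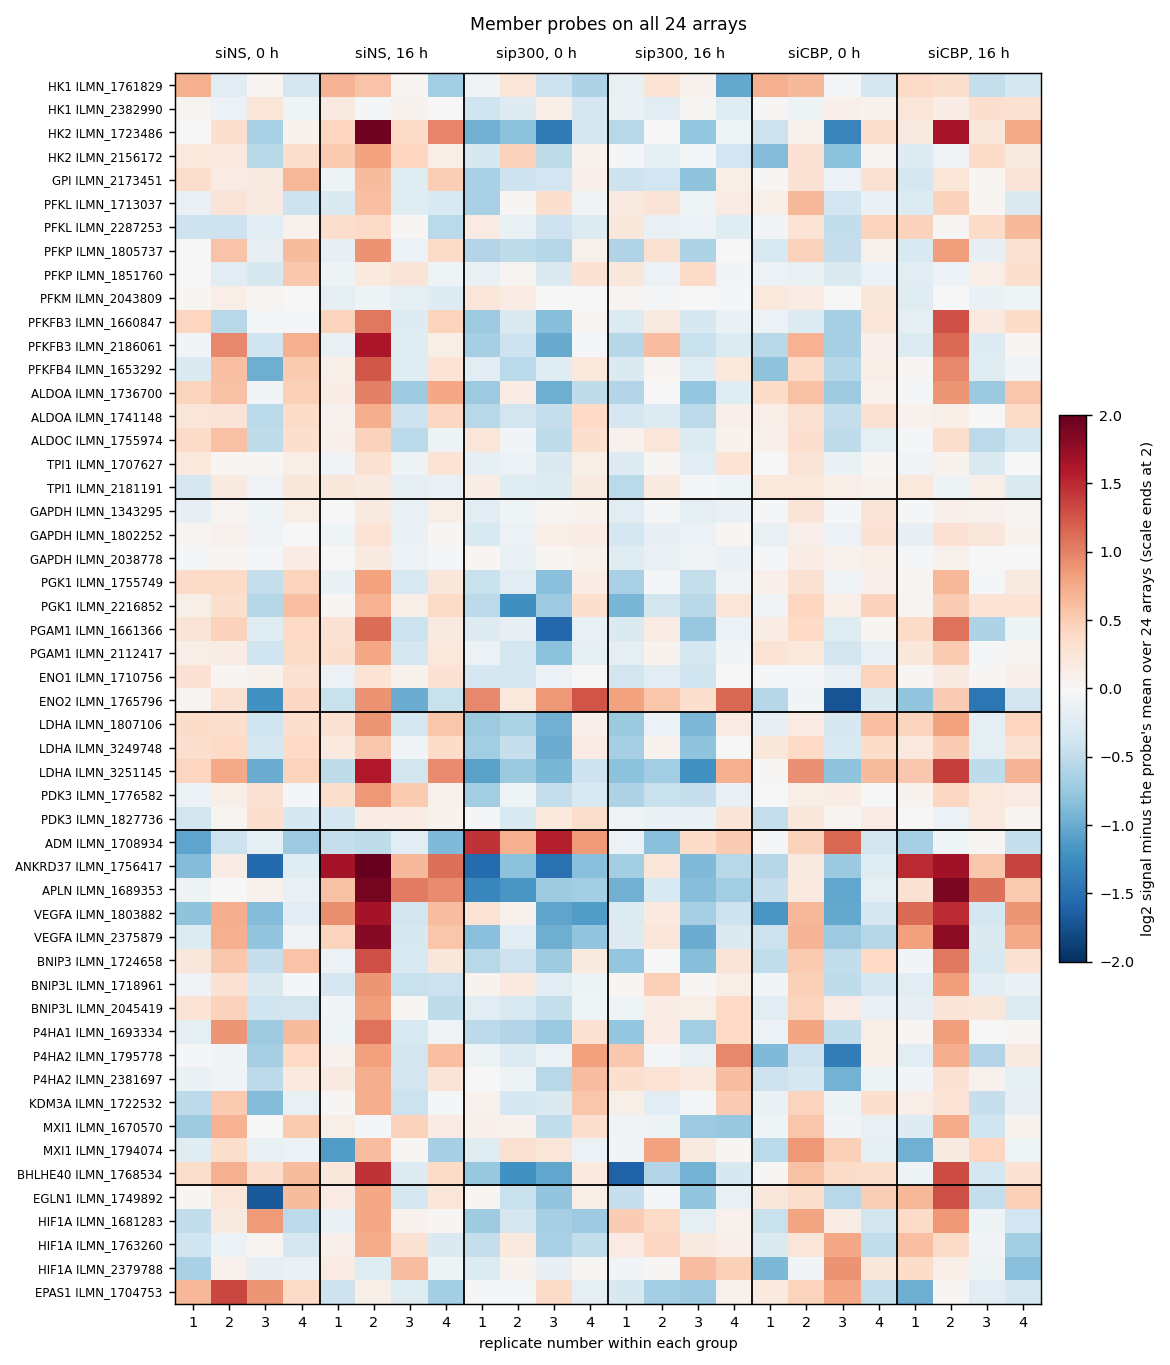
Levels of the 52 detected probes of glycolysis and hypoxia genes on all 24 arrays, each probe relative to its own mean over the arrays (colour, log2), with columns ordered by siRNA and DHT time. Many rows are low in the 8 sip300 arrays, and within each group the columns of replicate 2 tend to be high and those of replicate 3 low.

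Knockdown of EP300 lowered a large share of these genes at both times, among them HK2 on 1 of 2 probes, ALDOA, PGK1, PGAM1, ENO1 and LDHA. The probes of GAPDH, TPI1, PFKL, PFKM and ALDOC were not called. Averaged over 0 h and 16 h, 23 of 52 probes (17 genes) fell against siNS and 2 probes (ENO2 and ADM) rose, that is 44.2% of the members lower. Over all 23038 probes 29.1% were called in this comparison, 13.7% lower and 15.3% higher. The median member difference was -0.34 on the log2 scale, against 0.00 over all probes, and 40 of 52 members were below 0 (76.9% of the members, against 50.3% of all probes). All differences are log2 differences ± SE from 1 limma fit over the 24 arrays with replicate number as a block, and a probe is called at a Benjamini-Hochberg adjusted p under 0.05 over all 23038 probes. Since replicate numbers differed in these genes, sip300 was also set against siNS within each number. Of the 52 probes 17 were lower in all 8 pairs, 4 at each time, and 0 were higher in all 8. The share of all 23038 probes lower in all 8 pairs was not computed, so how unusual this count is was not tested. The same holds for the later pair counts taken over both times or over all siRNAs.

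At 0 h alone 18 probes (15 genes) fell and 1 rose, where 14.3% of all probes were called (6.96% lower, 7.34% higher). At 16 h 17 probes (14 genes) fell and 1 rose, where 17.3% were called (8.22% lower, 9.11% higher). PGK1 was called on ILMN_1755749 at 0 h only and on ILMN_2216852 at 16 h only. PGAM1 ILMN_2112417 was called at 0 h only, and ALDOA ILMN_1741148 at neither time. The call of PGAM1 ILMN_1661366 at 16 h was lost without any of 18 arrays in turn, and that of ENO1 at 0 h without any of 12. Within replicate numbers 22 members were lower in 4 of 4 pairs at 0 h and 27 at 16 h, against 14.5% and 17% of all probes. Fully separate groups were rarer: 4 members at 0 h and 7 at 16 h had all sip300 arrays below all siNS arrays (5.08% and 7.29% of all probes). Without the replicate block the calls fell to 2 at 0 h, 5 at 16 h and 13 over both times. Leaving out siNS_0h replicate 1 left 9 calls at 0 h and leaving out sip300_16h replicate 3 left 10 at 16 h, whereas over both times 22 to 26 were called without any 1 array.

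**Figure D2:**
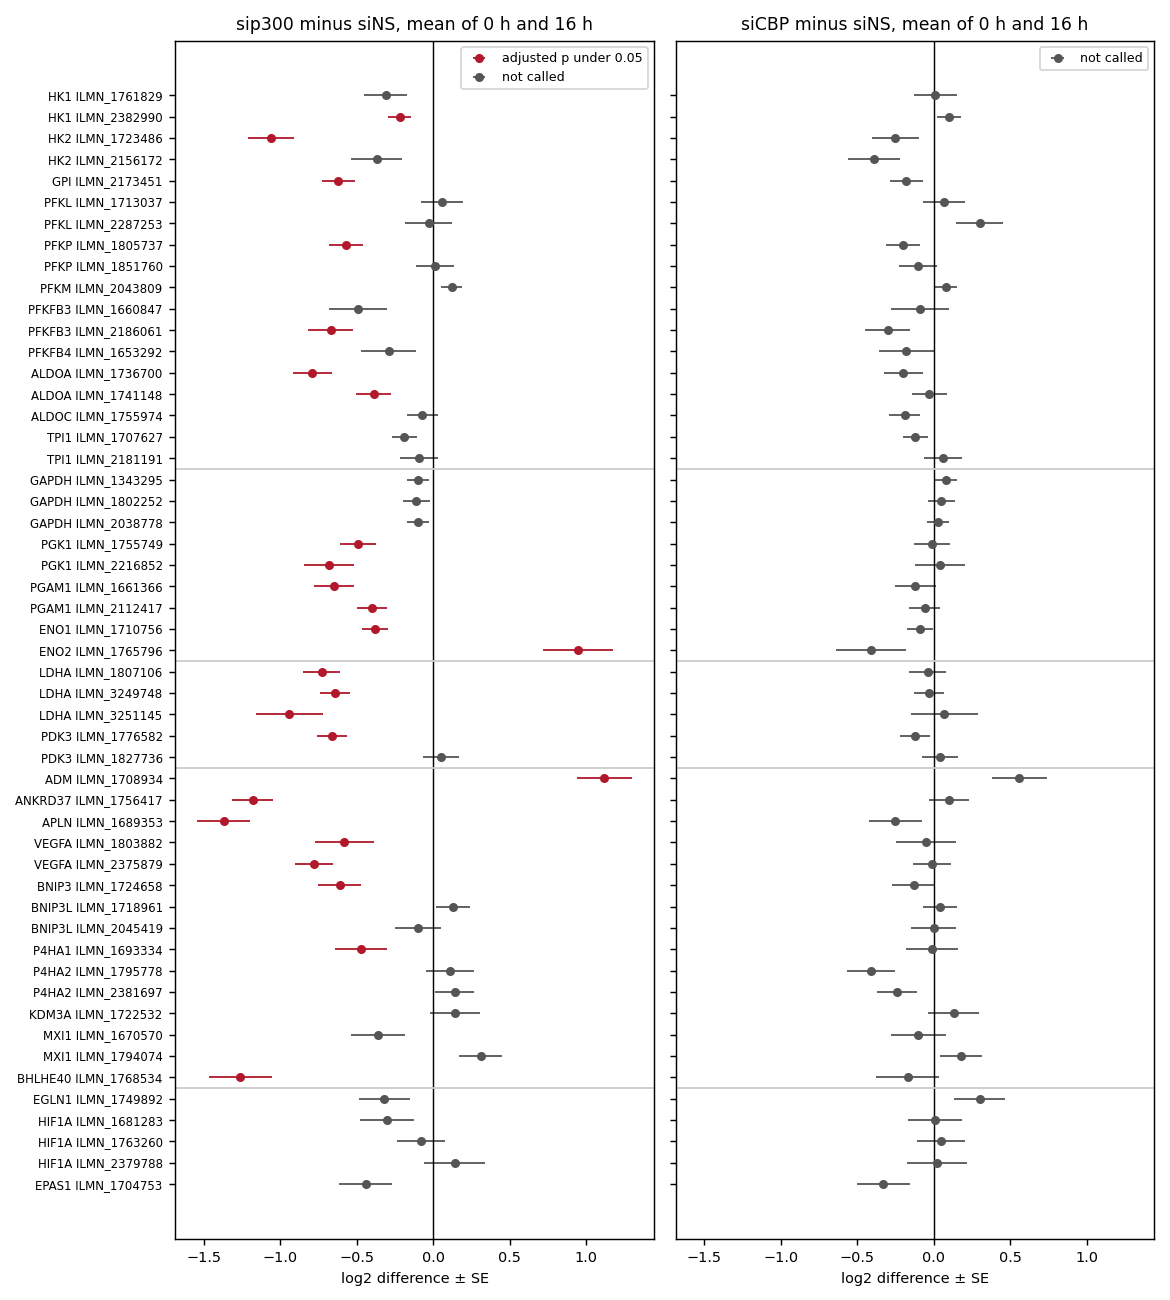
Log2 difference from siNS averaged over 0 h and 16 h for each of the 52 probes, with bars for ± SE, for sip300 and for siCBP. With sip300 23 probes lie below 0 and 2 above at an adjusted p under 0.05, and with siCBP 0 do.

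In the upper chain, from glucose to the triose phosphates, 7 of 18 probes fell and 0 rose, with a median of -0.30. HK2, the inducible hexokinase that traps glucose as its phosphate, moved the most. Its probe ILMN_1723486 read 9.34, 9.67, 8.69 and 9.40 (log2, replicates 1 to 4) in siNS cells at 0 h and 8.37, 8.51, 7.94 and 9.0 with sip300. At 16 h the same probe read 9.76, 11.28, 9.72 and 10.31 in siNS cells and 8.78, 9.33, 8.56 and 9.25 with sip300. The sip300 array was the lower in every pair, and at 16 h no sip300 array reached the lowest siNS array. The difference was -0.82 ± 0.214 at 0 h (adjusted p = 0.0138), -1.29 ± 0.214 at 16 h (adjusted p = 0.00041) and -1.06 ± 0.151 over both times (adjusted p = 3.18e-05, 48.1% of the siNS level left). A second HK2 probe, ILMN_2156172, differed by -0.37 without a call (adjusted p = 0.112). HK1, the hexokinase most tissues use throughout, fell by 0.22 on the log2 scale on probe ILMN_2382990 (adjusted p = 0.0375), a call lost without any of 10 arrays in turn (adjusted p up to 0.0928).

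GPI, which turns glucose 6-phosphate into fructose 6-phosphate, fell by 0.62 ± 0.108 (adjusted p = 0.000218, 65% left). ALDOA, the aldolase that splits fructose bisphosphate, read 13.10, 13.24, 12.61 and 13.14 at 0 h and 12.81, 13.66, 11.94 and 13.43 at 16 h in siNS cells on probe ILMN_1736700. With sip300 it read 11.94, 12.81, 11.69 and 12.15 at 0 h and 12.08, 12.65, 11.89 and 12.41 at 16 h. The groups overlapped at both times, through replicate 2 of sip300 or replicate 3 of siNS, yet each sip300 array lay below the siNS array of its own number. ALDOA fell by 0.79 ± 0.128 on this probe (adjusted p = 0.000108) and by 0.39 ± 0.115 on ILMN_1741148 (adjusted p = 0.0141). The phosphofructokinase subunits parted: PFKP fell by 0.57 ± 0.11 (ILMN_1805737, adjusted p = 0.000595, 67.6% left), while PFKL differed by 0.06 and -0.03 on its 2 probes and PFKM by 0.12, none called. PFKFB3, which makes the fructose 2,6-bisphosphate that activates phosphofructokinase, fell by 0.67 ± 0.146 on ILMN_2186061 (adjusted p = 0.0016), and its other probe gave -0.49 (adjusted p = 0.0591). PFKFB4 gave -0.29 and ALDOC, an aldolase best known from brain, -0.07, both without a call. TPI1, which interconverts the products of the aldolase step, gave -0.19 (adjusted p = 0.0942) and -0.09.

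In the lower chain, from GAPDH to the enolases, 5 of 9 probes fell and 1 rose, with a median of -0.38. PGK1, the first ATP-making step, fell by 0.49 ± 0.118 on ILMN_1755749 (adjusted p = 0.00329) and by 0.68 ± 0.163 on ILMN_2216852 (adjusted p = 0.00326). PGAM1, the phosphoglycerate mutase, fell by 0.65 ± 0.132 on ILMN_1661366 (adjusted p = 0.000846) and by 0.40 ± 0.101 on ILMN_2112417 (adjusted p = 0.00465). All 4 of these probes were lower in 8 of 8 pairs. GAPDH, the dehydrogenase often used as a reference gene, differed by -0.10, -0.11 and -0.10 on its 3 probes (adjusted p = 0.324, 0.387 and 0.367), with 95% intervals that lay between -0.30 and 0.07 together.

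The enolases went opposite ways. ENO1, the enolase of most tissues, fell by 0.38 ± 0.0848 (adjusted p = 0.00211, 77.1% left) and was lower in 8 of 8 pairs. ENO2, the enolase named for neurons and also a HIF target, read 8.24, 8.49, 6.96 and 8.59 at 0 h and 7.74, 9.07, 7.18 and 7.74 at 16 h in siNS cells. With sip300 ENO2 read 9.14, 8.39, 9.05 and 9.44 at 0 h and 8.98, 8.74, 8.52 and 9.32 at 16 h. Replicate 2 was the exception at both times, with the sip300 array below its siNS partner, and the other 6 pairs were all higher. Over both times ENO2 rose by 0.95 ± 0.229 (adjusted p = 0.00359, 1.93-fold).

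LDHA, the lactate dehydrogenase subunit that favours lactate, and PDK3, one of the kinases that switch off pyruvate dehydrogenase, gave 4 lower probes of 5 with a median of -0.66. On LDHA probe ILMN_3249748 siNS arrays read 14.53, 14.59, 13.84 and 14.60 at 0 h and 14.39, 14.74, 14.14 and 14.57 at 16 h. With sip300 they read 13.51, 13.74, 13.21 and 14.36 at 0 h and 13.54, 14.27, 13.40 and 14.21 at 16 h. Every sip300 array was below its siNS partner, and siNS replicate 3 lay low enough for the groups to overlap. LDHA fell by 0.64 ± 0.0983 on this probe (adjusted p = 5.97e-05, 64% left) and by 0.73 ± 0.12 on ILMN_1807106 (adjusted p = 0.000121). A further, dim probe, ILMN_3251145, fell by 0.94 ± 0.22 (adjusted p = 0.00293) but was detected on only 1 of 4 arrays in each sip300 group.

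PDK3 was split by probe. On ILMN_1776582 siNS arrays read 9.24, 9.47, 9.66 and 9.31 at 0 h and 9.70, 10.21, 9.88 and 9.43 at 16 h, and sip300 arrays 8.66, 9.26, 8.88 and 9.05 and then 8.73, 8.91, 8.89 and 9.20. At 16 h all 4 sip300 arrays lay below all 4 siNS arrays. The difference was -0.46 ± 0.139 at 0 h (adjusted p = 0.032) and -0.87 ± 0.139 at 16 h (adjusted p = 0.000292). The other PDK3 probe, ILMN_1827736, gave 0.05 ± 0.116 over both times (adjusted p = 0.804). Such splits were common: of 17 genes with more than 1 detected probe, 5 fell on all, 5 fell on some and were not called on others, and 7 were called on none.

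**Figure D3:**
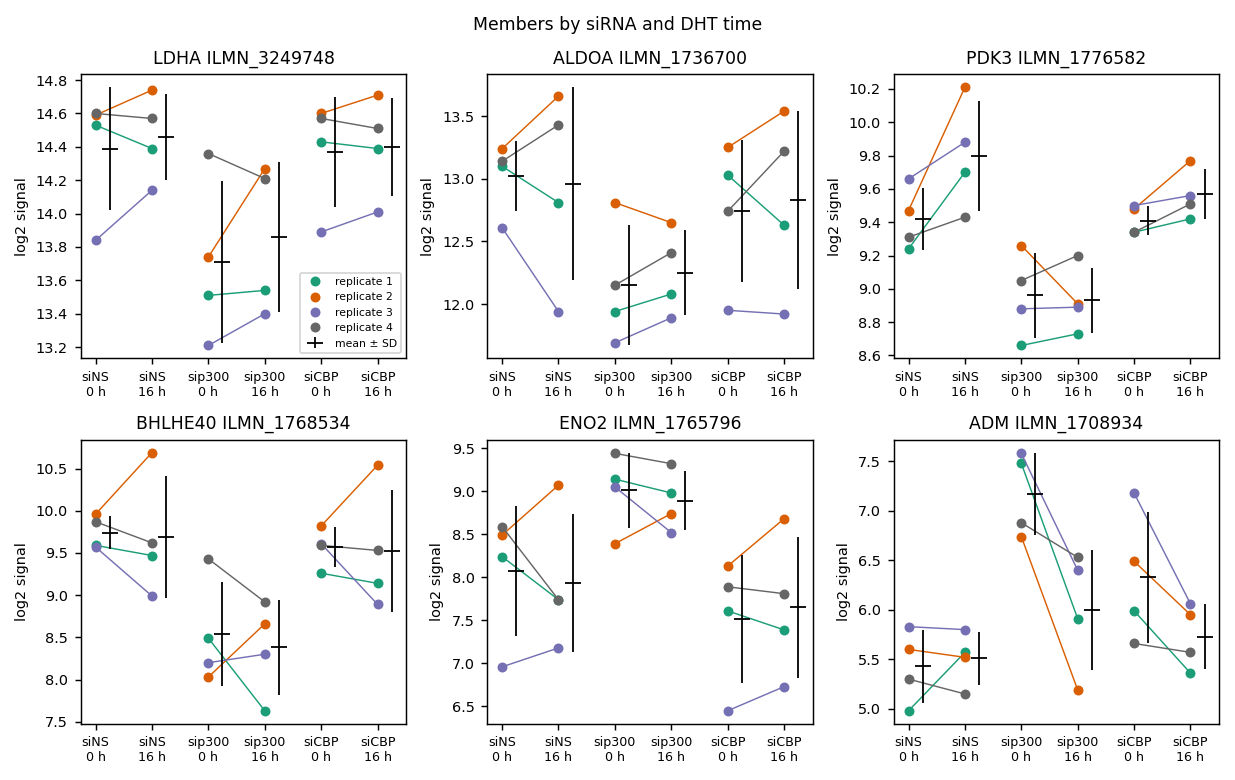
Level (log2) on each array for probes of LDHA, ALDOA, PDK3, BHLHE40, ENO2 and ADM in the 6 groups, 1 point per array, with the mean ± SD of 4 arrays. LDHA, ALDOA, PDK3 and BHLHE40 are lower and ENO2 and ADM higher in sip300 cells than in siNS cells, and siCBP arrays overlap siNS arrays in all 6 panels.

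Among HIF targets outside the glycolytic chain 7 of 15 probes fell and 1 rose, with a median of -0.36. BHLHE40, a repressor of transcription that responds to hypoxia and to the clock, read 9.59, 9.96, 9.57 and 9.87 at 0 h and 9.47, 10.69, 8.99 and 9.62 at 16 h in siNS cells. With sip300 BHLHE40 read 8.49, 8.03, 8.20 and 9.43 at 0 h and 7.63, 8.66, 8.30 and 8.92 at 16 h. No sip300 array reached the lowest siNS array at either time. BHLHE40 fell by 1.26 ± 0.207 over both times (adjusted p = 0.000124, 41.8% left), by 1.20 at 0 h and 1.32 at 16 h. APLN, which encodes the vessel-forming peptide apelin, read 6.31, 6.41, 6.51 and 6.27 at 0 h in siNS cells and 5.12, 5.26, 5.70 and 5.74 with sip300, where it was above background on 0 of 4 arrays. The 0 h difference is therefore a bound, at least 1.51-fold lower with sip300 (adjusted p = 0.016), where the lowest signal of a detected probe stands in for any dimmer value.

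At 16 h APLN read 7.0, 8.33, 7.46 and 7.37 in siNS cells against 5.46, 6.12, 5.57 and 5.72 with sip300, a difference of -1.82 ± 0.247 (adjusted p = 6.73e-05). ANKRD37, a HIF-1 target that encodes a small ankyrin repeat protein, read 8.08, 9.09, 7.39 and 8.70 at 0 h in siNS cells and 7.41, 8.12, 7.46 and 8.11 with sip300. At 16 h ANKRD37 read 10.61, 10.94, 9.59 and 10.05 in siNS cells and 8.27, 9.19, 8.07 and 8.40 with sip300. Groups overlapped at 0 h, where the difference of -0.54 ± 0.189 was not called (adjusted p = 0.0621), and were apart at 16 h, where ANKRD37 fell by 1.81 ± 0.189 (adjusted p = 5.25e-06, 28.5% left). VEGFA, the growth factor of blood vessels, read 8.24, 9.22, 7.72 and 8.44 at 0 h and 8.96, 10.33, 8.20 and 9.07 at 16 h in siNS cells on ILMN_2375879. With sip300 this probe read 7.68, 8.30, 7.54 and 7.72 at 0 h and 8.26, 8.75, 7.52 and 8.22 at 16 h, lower in each pair though the groups overlapped. VEGFA fell on it by 0.78 ± 0.125 (adjusted p = 9.92e-05), and on ILMN_1803882 by 0.58 ± 0.196 (adjusted p = 0.0294), a call lost without any of 9 arrays in turn.

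BNIP3, a mitochondrial receptor of mitophagy, fell by 0.61 ± 0.141 (adjusted p = 0.00245), whereas its relative BNIP3L gave 0.13 and -0.10 on 2 probes without a call. P4HA1, a subunit of the collagen prolyl hydroxylase, fell by 0.47 ± 0.169 (adjusted p = 0.0419), and that call was lost without any of 10 arrays in turn. P4HA2 gave 0.11 and 0.14, the histone demethylase KDM3A 0.14, and the MYC antagonist MXI1 -0.36 and 0.31 on 2 probes, none of them called. ADM, which encodes the vasodilator adrenomedullin, went the other way. At 0 h ADM read 4.98, 5.60, 5.83 and 5.30 in siNS cells, where 1 of 4 arrays was above background, and 7.48, 6.74, 7.58 and 6.88 with sip300, where all 4 were. No siNS array reached a sip300 array, and ADM rose by 1.74 ± 0.256 (adjusted p = 0.000191). Since siNS cells were near background, the size of this rise is uncertain and no fold is given. At 16 h siNS arrays read 5.57, 5.52, 5.80 and 5.15, all undetected, and sip300 arrays 5.91, 5.19, 6.40 and 6.53, at least 1.13-fold higher without a call (adjusted p = 0.208).

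None of the 5 probes for the HIF subunits and the sensor EGLN1 passed the test over both times. HIF1A gave -0.30, -0.08 and 0.14 on 3 probes (adjusted p = 0.217, 0.768 and 0.658). EGLN1 gave -0.32 ± 0.168 (adjusted p = 0.176). EPAS1, the HIF-2 subunit, gave -0.44 ± 0.173 (adjusted p = 0.0623). At 0 h alone EPAS1 read 6.98, 7.65, 7.20 and 6.69 in siNS cells and 6.29, 6.29, 6.70 and 6.13 with sip300, a fall by 0.78 ± 0.245 (adjusted p = 0.0382) that missed the threshold without any of 6 arrays in turn. These probes measure RNA, and HIF1A is known to be set mostly by protein breakdown.

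Of the 17 genes that fell with sip300 over both times, 16 have a promoter window, 15 of these hold a HIF core and 12 hold ACGTG, while PGAM1 holds neither core. ENO2 and ADM, which rose, hold a core as well. The shares for all members, 32 of 35 with a core and 23 of 35 with ACGTG, were close to these.

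Knockdown of CREBBP left 0 of 52 probes past the threshold at 0 h, at 16 h and over both times (limma), where 0.0651%, 0.0868% and 0.833% of all probes were called. At an unadjusted p under 0.05 there were 3, 0 and 3 members. Member medians were -0.07, -0.06 and -0.03. Within replicate numbers 9 members were lower in 4 of 4 pairs at 0 h and 7 at 16 h, against 8.59% and 9.94% of all probes. PFKP (ILMN_1805737), PFKFB3 (ILMN_2186061) and P4HA2 (ILMN_1795778) were lower in 8 of 8 pairs, with differences of -0.20, -0.30 and -0.41 over both times that were not called (adjusted p = 0.501, 0.442 and 0.279). Over both times the differences ran from -0.41 to 0.56, with a median 95% interval of ± 0.29. For 38 of 52 probes the whole interval lay within 0.5 of 0 on the log2 scale, and for 42 it lay above -0.5, so for the other 10 a fall of 0.5 lay inside the interval.

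The member nearest to a call was ADM, which read 5.99, 6.49, 7.18 and 5.66 with siCBP at 0 h and 5.36, 5.95, 6.06 and 5.57 at 16 h. Its difference from siNS, where it was near background, was 0.56 ± 0.181 over both times (unadjusted p = 0.0056, adjusted p = 0.176) and 0.90 at 0 h (adjusted p = 0.294). P4HA2 followed on ILMN_1795778, with 7.91, 8.38, 7.41 and 8.92 at 0 h against 8.77, 8.74, 8.13 and 9.19 in siNS cells, and -0.41 over both times (unadjusted p = 0.0172). HK2 gave -0.39 on ILMN_2156172 (unadjusted p = 0.0292). LDHA, by contrast, read 14.43, 14.60, 13.89 and 14.57 with siCBP at 0 h and 14.39, 14.71, 14.01 and 14.51 at 16 h on ILMN_3249748, near the siNS array of the same number throughout.

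Set against each other, the knockdowns differed in these genes. At 0 h 8 probes (7 genes) were lower and 3 higher in sip300 than in siCBP cells, where 9.84% of all probes were called (4.79% lower, 5.05% higher). At 16 h 14 probes (11 genes) were lower and 1 higher, where 13.1% were called (5.96% lower, 7.17% higher). Probes of LDHA, ALDOA, PDK3, ANKRD37 and BHLHE40 were lower with sip300 at both times, PGK1 was lower on 1 probe at 0 h and on the other at 16 h, and ENO2 was higher by 1.49 ± 0.324 at 0 h (adjusted p = 0.00587) and 1.23 at 16 h (adjusted p = 0.0149). ENO2 read 7.61, 8.13, 6.45 and 7.89 with siCBP at 0 h, below all 4 sip300 arrays, and 7.39, 8.68, 6.73 and 7.81 at 16 h. The largest falls were those of ANKRD37 and APLN at 16 h, by 1.72 ± 0.189 (adjusted p = 1.15e-05) and 1.65 ± 0.247 (adjusted p = 0.000212). ANKRD37 read 10.44, 10.62, 9.48 and 10.30 with siCBP at 16 h, and APLN 6.72, 8.30, 7.52 and 6.94. No sip300 array at 16 h came up to the lowest of these.

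At 16 h HK2 was lower with sip300 than with siCBP by 1.06 ± 0.214 (ILMN_1723486, adjusted p = 0.00249), VEGFA by 1.08 and 1.09 on 2 probes (adjusted p = 0.0131 and 0.000416) and EGLN1 by 0.84 (adjusted p = 0.0225). ADM and P4HA2 (ILMN_1795778) were higher at 0 h by 0.84 (adjusted p = 0.0428) and 0.72 (adjusted p = 0.0435). The calls of ADM, P4HA2 and EGLN1 were lost without any of 9, 13 and 4 arrays in turn. These tests hold at the depth of knockdown reached, which left 48.8% of EP300 and 30.5% of CREBBP. Leaving out siCBP_0h replicate 1 left 4 calls of 11 at 0 h, and leaving out siCBP_16h replicate 1 left 9 of 15 at 16 h. Without the replicate block there were 0 and 3.

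DHT changed few of these genes, with 11.5% of member probes called in siNS cells, 9.62% in siCBP cells and 1.92% in sip300 cells. In siNS cells 5 probes of 4 genes rose and 1 fell among 52, where 4.13% of all probes were called (2.43% higher, 1.7% lower). In siCBP cells 5 probes of 4 genes rose and 0 fell (3.41% of all probes called, 1.87% higher and 1.54% lower). In sip300 cells 0 rose and 1 fell (1.15% of all probes called, 0.92% higher and 0.23% lower). The genes that rose in siNS and in siCBP cells were ANKRD37, APLN, HK2 and VEGFA.

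ANKRD37 had the largest response. It rose by 1.98 ± 0.189 in siNS cells (adjusted p = 9.36e-07, 3.95-fold), with every 16 h array above every 0 h array in the values given above. In siCBP cells ANKRD37 read 8.37, 9.13, 8.21 and 8.71 at 0 h and rose by 1.60 ± 0.189 (adjusted p = 1.74e-05, 3.04-fold). In sip300 cells its difference of 0.71 ± 0.189 was not called (adjusted p = 0.0893), and it was higher at 16 h in all 12 pairs of the 3 arms. HK2 rose on ILMN_1723486 by 0.99 ± 0.214 in siNS cells (adjusted p = 0.00778, 1.99-fold) and by 1.04 ± 0.214 in siCBP cells (adjusted p = 0.00593), and gave 0.52 in sip300 cells (adjusted p = 0.508). With siCBP this probe read 8.91, 9.42, 8.02 and 9.65 at 0 h and 9.52, 10.98, 9.57 and 10.09 at 16 h, higher in each pair. The second HK2 probe, ILMN_2156172, was not called in any arm and was higher at 16 h in 8 of 12 pairs.

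APLN rose by 1.16 ± 0.247 in siNS cells (adjusted p = 0.00664) and by 1.32 ± 0.247 in siCBP cells (adjusted p = 0.00244), from 5.95, 6.62, 5.38 and 6.24 at 0 h in the latter. In sip300 cells APLN stayed near background, with 0 and 2 of 4 arrays detected, and no fold is given. VEGFA rose on both probes, by 0.74 ± 0.177 (ILMN_2375879, adjusted p = 0.0177) and 1.00 ± 0.277 (ILMN_1803882, adjusted p = 0.0452) in siNS cells and by 1.02 (adjusted p = 0.00112) and 1.26 (adjusted p = 0.0104) in siCBP cells. The first of these probes read 8.08, 9.20, 7.79 and 7.95 with siCBP at 0 h and 9.33, 10.30, 8.22 and 9.27 at 16 h. The second was detected on only 2 of 4 arrays with siCBP at 0 h, so the size of its rise there is uncertain. In siNS cells the VEGFA call on ILMN_1803882 was lost without any of 14 arrays in turn (adjusted p up to 0.186, without siNS_0h replicate 1) and that on ILMN_2375879 without any of 3 (up to 0.0972, without siNS_16h replicate 2).

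2 members fell with DHT in 1 arm each. EPAS1 read 5.90, 6.43, 6.07 and 5.64 at 16 h in siNS cells, below all 4 arrays at 0 h. It fell there by 1.12 ± 0.245 (limma, adjusted p = 0.00862). At 16 h EPAS1 was detected on only 2 of 4 arrays in siNS and in sip300 cells and on 3 of 4 in siCBP cells. The sizes of its differences are therefore uncertain, and no share left is given. In sip300 cells EPAS1 read 5.99, 5.64, 5.59 and 6.40 at 16 h, a difference of -0.44 (adjusted p = 0.767), and in siCBP cells 6.51, 6.76, 7.08 and 5.83 at 0 h and 5.33, 6.34, 6.09 and 5.96 at 16 h, a difference of -0.62 (adjusted p = 0.249). ADM fell in sip300 cells by 1.17 ± 0.256 (limma, adjusted p = 0.0219), from the high level at 0 h. That call was lost without any of 5 arrays in turn (adjusted p up to 0.127, without sip300_0h replicate 1).

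**Figure D4:**
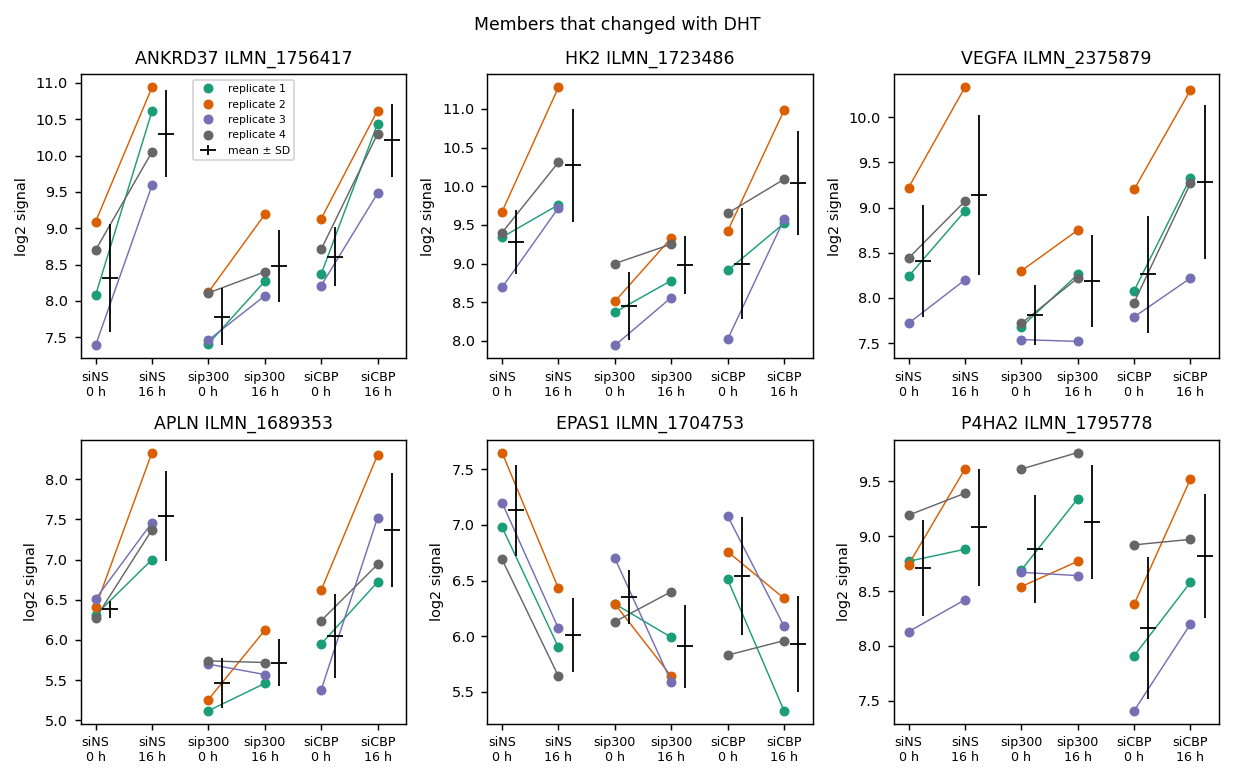
Level (log2) at 0 h and 16 h of DHT for probes of ANKRD37, HK2, VEGFA, APLN, EPAS1 and P4HA2 in the 3 siRNA arms, with lines joining arrays of the same replicate number and bars for the mean ± SD of 4 arrays. ANKRD37 and HK2 are higher at 16 h in all 12 pairs, and their group means in sip300 cells are the lowest of the 3 arms at either time.

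Averaged over the 3 arms, 7 probes (5 genes) rose with DHT and 3 fell, where 9.33% of all probes were called (4.67% higher, 4.66% lower). P4HA2 joined the genes that rose, by 0.43 (ILMN_1795778, adjusted p = 0.0391) and 0.39 (ILMN_2381697, adjusted p = 0.0204), each higher in 11 of 12 pairs. The call on ILMN_1795778 was lost without any of 15 arrays in turn (adjusted p up to 0.078). PFKM, the muscle-type phosphofructokinase, fell by 0.21 ± 0.0572 (adjusted p = 0.0241) and was lower in 12 of 12 pairs, although the change was small and without siCBP_16h replicate 1 its adjusted p was 0.0525. EPAS1 fell by 0.73 (adjusted p = 0.00155) and ADM by 0.56 (adjusted p = 0.0182), in 10 and 11 of 12 pairs. Of the 18 upper-chain probes 1 rose and 1 fell, of the 9 lower-chain probes and the 5 of LDHA and PDK3 0 were called, and of 15 HIF target probes 6 rose.

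Whether the DHT response itself depended on the siRNA was tested as a difference of responses. For sip300 against siNS 0 of 52 members were called (limma), with 5 at an unadjusted p under 0.05, where 0.0521% of all probes were called. For siCBP against siNS and for sip300 against siCBP 0 of 52 and 0% of all probes were called, with 0 and 4 members at an unadjusted p under 0.05. ANKRD37 had the lowest p: its response with sip300 minus that with siNS was -1.27 ± 0.267 (95% interval -1.83 to -0.72, unadjusted p = 0.000118, adjusted p = 0.124). It passed the threshold on the authors' processed values (adjusted p = 0.0394), after quantile normalisation without background correction (adjusted p = 0.00437) and with trend and robust options (adjusted p = 0.0119), so its call depends on the processing. For ADM and APLN, which were at or near background in some of the groups, no difference of responses is given. The differences of sip300 and of DHT from siNS share the siNS arrays, so their sizes for ANKRD37, APLN, HK2 and VEGFA are not independent of each other.

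Replicate number took a larger share of the variation in these genes than DHT did. That share had a median of 35.2% over the 52 members and 18.4% over all probes, against 18.8% and 13.5% for siRNA and 3.07% and 2.89% for DHT. The shares are not adjusted for the number of levels, which is highest for replicate number and lowest for DHT. A factor with more levels takes a larger share from noise alone, so shares of different factors are not on equal terms. Replicate number was called for 30 of 52 probes (23 genes), where 24.8% of all probes were called. That the members vary between numbers was known when the rule was set. The count and the F values below describe this variation and are no independent test of it. Of the 52 members 33 were highest in number 2 and 34 were lowest in number 3, against 26.5% and 24.5% of all probes. VEGFA (ILMN_2375879) had the largest F, 37.8 (adjusted p = 3.56e-06), with means over 6 arrays of 8.43, 9.35, 7.83 and 8.45 in numbers 1 to 4. PFKFB3 (ILMN_2186061) followed with 9.41, 10.56, 9.28 and 9.90, then ALDOA (ILMN_1736700) with 12.6, 13.19, 12 and 12.85. PGAM1 (ILMN_1661366), PFKP (ILMN_1805737) and ANKRD37 came next, each highest in number 2. The labels do not say what a number stands for.

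Median raw signal per array was 684, 679, 669 and 811 in numbers 1 to 4, and the median count of detected probes was 18196.5, 18714, 18253 and 19007. Median raw signal was highest in number 4 and lowest in number 3, where most members were low. In number 2, where most members were high, it lay between these. Slide 1 held 3, 3, 2 and 4 of the 6 arrays of each number. The part of these in the members' spread was not tested.

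**Figure D5:**
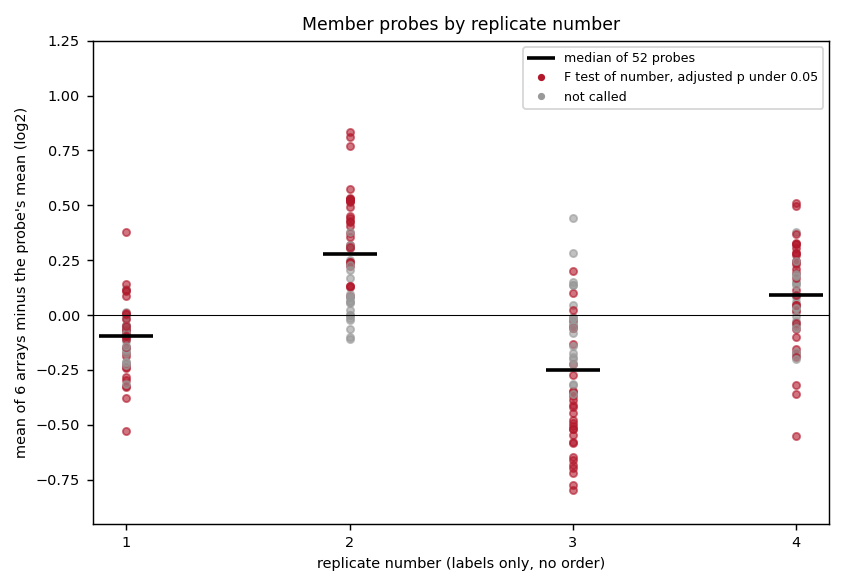
Mean of the 6 arrays of each replicate number minus the probe's mean over all 24 arrays (log2), 1 point for each of 52 probes, with a black dash at the median. Number 2 lies mostly above 0 and number 3 mostly below.

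Other genes of the pathway were counted from lists, 2 of which share GYS1, chosen with earlier results known. Of 21 other glycolysis genes 12 were detected, on 21 probes, of which 8 fell and 0 rose with sip300 over both times (median -0.26). For this and the following lists the shares over all probes were 13.7% lower and 15.3% higher with sip300, and 4.67% higher and 4.66% lower with DHT. PKM, the pyruvate kinase that ends the chain, fell on 3 probes by 1.02, 0.72 and 0.60 (adjusted p = 1.71e-05, 0.00164 and 0.000399). PGAM4 fell on 3 probes by 0.54, 0.52 and 0.30, but it is a near-identical copy of PGAM1 and its probes may read PGAM1. With DHT averaged over arms 4 of the 21 probes rose and 0 fell, among them PGM2, which feeds sugar phosphates into the chain, by 0.84 (adjusted p = 7.4e-05), and PFKFB2, a relative of PFKFB3, by 0.60 (adjusted p = 0.000291).

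Of 18 genes of pyruvate's fate 14 were detected, on 19 probes, and 8 fell and 2 rose with sip300 (median -0.11). PDHX, a structural part of pyruvate dehydrogenase, fell by 0.70 (adjusted p = 3e-04), PCK2, the mitochondrial enzyme that makes phosphoenolpyruvate, by up to 0.71, and MPC1, a subunit of the mitochondrial pyruvate carrier, by 0.53 and 0.29. The monocarboxylate transporter SLC16A7 rose by 0.76 (adjusted p = 0.0034). PDHX also fell with siCBP, by 0.66 (adjusted p = 0.0132). With DHT MPC2, the other subunit of the carrier, rose by 0.67 (adjusted p = 2.86e-06). Of 14 probes of the pentose phosphate and glycogen genes 3 fell and 2 rose with sip300 (median -0.06), near the 13.7% lower and 15.3% higher of all probes. PYGL, the liver-type glycogen phosphorylase, fell with sip300 by 1.18 (adjusted p = 2.3e-05) and with siCBP by 0.93 (adjusted p = 0.00805), and its brain-type relative PYGB rose with DHT by 0.77 (adjusted p = 5.28e-05).

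Of 46 other HIF targets 37 were detected, on 53 probes, and 22 fell and 7 rose with sip300 (median -0.25), beside 13.7% lower and 15.3% higher of all probes. CA12, a membrane carbonic anhydrase, fell the most, by 2.16 (adjusted p = 3.8e-07) and 1.66 on 2 probes, then the secreted glycoprotein STC2 by 1.48 (adjusted p = 1.29e-08) and the adenylate kinase AK4 by up to 1.14 (adjusted p = 4.99e-08). The histone demethylase KDM5B rose by 1.05 (adjusted p = 1.09e-06). With DHT 11 of these probes rose and 5 fell (4.67% and 4.66% of all probes), led by ERRFI1, an inhibitor of the EGF receptor, up by 2.44 (adjusted p = 4.17e-11), and NDRG1, up by 2.25 (adjusted p = 1.97e-09), both also known as androgen-responsive. The cyclin CCNG2 fell with DHT on 3 probes, by 0.81 to 0.99, and rose with siCBP on 2, by 0.79 and 0.72 (adjusted p = 0.0302 and 0.00183).

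Of 21 probes of the HIF machinery 5 rose and 2 fell with sip300 (median 0.08), not far from the 15.3% higher and 13.7% lower of all probes, and 0 were called with DHT. ARNT2, a partner of HIF subunits, rose by 1.01 (adjusted p = 9.56e-06, limma). HIF1AN, the hydroxylase that blocks the binding of p300 and CBP to HIF, rose by 0.69 (adjusted p = 5e-04) and SIRT1 by 0.67 (adjusted p = 0.00108). HSP90AA1, the chaperone that stabilises HIF1A, fell by 0.84 (adjusted p = 8.45e-05).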

How the data were processed

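One deposited table gives each probe's raw mean bead intensity and, per the file headers, a detection p-value; of its 48118 rows 887 are controls and were not used. The authors' processed log2 values, deposited as a second table, came from a procedure that names limma without a version, per the submitters' processing notes. They were set against the same arrays here, correlated at 0.998 or more with the values used and matched their own array for 24 of 24 columns, with column medians of 5.45 to 5.47; whether they were adjusted for replicate number is not given in the sources used here.

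Intensities went through neqc, which corrects background and quantile normalises (limma 3.58.1, R 4.3.3; background estimated from the detection p-values, offset 16), which gives log2 values. A probe was kept if its detection p was below 0.05 on 4 or more of the 24 arrays, as held for 23038 of 47231, and between 17663 and 19830 probes were detected per array. Symbols came from the platform's probe table, updated by Entrez identifier for 30074 probes; 16655 kept probes name 1 gene, 4 several and 6379 none. The number of arrays limits the precision. One limma fit had 6 group means plus a block for replicate number, with 15 residual degrees of freedom, and gave 15 contrasts and an F test for replicate number; tests were 2-sided, with Benjamini-Hochberg adjustment over all kept probes within each. The steps were tested on simulated data. The same-numbered arrays deviated together: their 60 pairs correlated at 0.127 to 0.522 after centring on group means, while arrays of different numbers reached 0.178 at the highest, and each of the 24 correlated best with its own number, so the pairing comes from the data. A group below background on every array gives a bound, computed from the lowest signal of a detected probe. Each of 2 slides held 12 arrays, 2 of every group, with mean raw signals of 782 ± 70.1 and 643 ± 43.7 (SD). Values in every array are given for the called members with the largest differences in each contrast and those with the largest replicate-number F, and list genes are named where called, up to 4 per list and contrast. Members, lists and tests were chosen with earlier results of these data known. Alternatives were other scalings, filters, blocks and subsets of arrays.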

Additional observations from a re-analysis of the deposited data

Results flagged for a closer look

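Among 180 sets of 4 arrays, 1 for each group and each member probe called in any comparison, 9 held an array that stood apart from the other 3 by Dixon's criterion, which chance gives in about 1 of 20 sets. Replicate 3 of siNS at 0 h was low on 4 probes: it read 13.44 on LDHA ILMN_1807106 (others 14.18 to 14.21), 13.84 on LDHA ILMN_3249748 (14.53 to 14.60), 12.86 on PGK1 ILMN_1755749 (13.73 to 13.79) and 11.90 on ALDOA ILMN_1741148 (12.68 to 12.80). Replicate 3 of sip300 at 0 h read 9.54 on PGAM1 ILMN_1661366 (10.84 to 10.96). P4HA1 was high in replicate 2 at 16 h, at 10.90 in siNS cells (9.52 to 9.75) and 10.65 in siCBP cells (9.82 to 9.86). Replicate 4 of sip300 at 0 h was high on PFKP ILMN_1805737, at 11.45 (10.78 to 10.85), and on P4HA2 ILMN_1795778, at 9.61 (8.54 to 8.69).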

How the results depend on the processing

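Values are counts of the 52 member probes called. Without the replicate block, which ignores the pairing of arrays by number, DHT gave 3 (siNS), 0 (sip300), 2 (siCBP) and 4 over the arms, sip300 against siNS gave 2, 5 and 13 (0 h, 16 h, both times), and sip300 against siCBP gave 0 and 3; 32 of 110 called pairs of probe and contrast were kept. Over both times 13 of 25 calls were kept, and the others had adjusted p of 0.0505 to 0.242. With replicate number as a random block (consensus correlation 0.188) the counts were 3 and 3 for DHT in siNS and siCBP cells, 10 and 10 for sip300 against siNS at 0 h and 16 h, and 3 and 9 against siCBP. With only the groups compared they were 3, 0 and 2 for DHT, 7 and 10 for sip300 against siNS, and 1 and 6 against siCBP. Slide 1 alone, without the block, gave 1, 0, 0 and 5 for DHT, 0, 2 and 7 for sip300 against siNS, and 0 and 1 against siCBP. Slide 2 alone gave 0 throughout, except 1 lower probe for DHT over the arms and 1 for sip300 over both times; VEGFA ILMN_2375879 reversed there for DHT in siNS cells (-0.25), as did P4HA2 ILMN_1795778 over the arms (-0.09). These subsets have fewer arrays.

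For DHT in sip300 cells 2 probes were called with slide added to the block, on the authors' values and with trend and robust options. The added call was ANKRD37, higher by 0.71 in each (limma, adjusted p = 0.0391, 0.0332 and 0.0189). Among the 13273 probes detected on all 24 arrays 1 was called, a higher one. ADM, the lower call of the main fit, was detected on 13 of 24 arrays and so fell outside that filter. That filter left 3 for DHT in siNS and in siCBP cells. The change of DHT response by sip300 gave 1 after quantile normalisation, on the authors' values and with trend and robust options. On the authors' values replicate number gave 0. With no filter on dim probes sip300 against siCBP at 0 h gave 4. The authors' values, slide and the trend and robust options each kept 110 of the 110 called pairs, and quantile normalisation 108.

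Leaving out 1 array or 1 number gave 2 to 6, 0 to 2, 3 to 6 and 6 to 11 for DHT with siNS, with sip300, with siCBP and over the arms; 2 to 20, 7 to 18 and 22 to 26 for sip300 against siNS at 0 h, 16 h and both times; 0 to 0 for siCBP against siNS; 1 to 13 and 5 to 18 for sip300 against siCBP; 0 to 0 for the changes of DHT response; and 17 to 31 for replicate number. Without replicate 2 sip300 against siCBP at 0 h gave 4, 3 of them higher. The cause of these shifts was not tested. APLN, ADM and LDHA ILMN_3251145 lie near background, where differences are read least surely. So do EPAS1 at 16 h and VEGFA ILMN_1803882 at 0 h in sip300 and siCBP cells.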

Other observations

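12 further probes of member genes did not reach detection on 4 arrays. PDK1 was detected on 0 of 24 arrays, EGLN3 on 1 and LOX on 2, with 1 of these in siNS and 1 in siCBP cells, both at 16 h. A pyruvate dehydrogenase kinase, a prolyl hydroxylase and a collagen cross-linking enzyme known as HIF targets were thus not well above background here.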
